A study of Mus musculus with 10 samples.

Results

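The stathmins, GAP-43, BASP1, doublecortin and the collapsin response mediator proteins act on the microtubules and the membrane of growing neurites. The set described here holds 10 genes, Stmn1 to Stmn4, Gap43, Basp1, Dcx, Dpysl2, Dpysl3 and Dpysl5. The members were chosen by name, and every probe whose transcript belongs to a member was taken, which gave 15 of the 41174 probes on the array and 10 of the 18539 genes that could be named. By the brightest probe, 7 of 10 members had at least 2-fold more signal in the hemibrain than in the other dye on every array with a value. They were Stmn1, Stmn2, Stmn3, Stmn4, Gap43, Dcx and Dpysl2. Over all named genes the share that passed in this way was 16.5%. Another probe of Dpysl2, well above background in both dyes, passed 2-fold on 0 arrays, and another of Stmn1 on 9 of 10. Basp1 passed 2-fold on 8 of 10 arrays, Dpysl5 on 1, and Dpysl3 lay just below the other dye on 9.

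Each array was hybridized with RNA from the left hemibrain of a male C57BL/6J mouse, labeled with Cy-5, and with a second RNA labeled with Cy-3. The mice were housed singly from 3 weeks of age. They were fed either a standard lab diet (SD) or a fish oil enriched diet (FD) for 20 weeks, to an age of 5 months. FD held more fat and more n-3 polyunsaturated fatty acids than SD, and less of the n-6 ones. On all 10 arrays the labels enter FD as the diet of the Cy-5 sample and SD as that of a pooled hemibrain in Cy-3, the descriptions of the same arrays call them controls, and the methods name a commercial reference RNA in Cy-3 with FD and SD hemibrains on separate arrays. No array could be given a diet from this, so FD and SD were not compared here. Each value is given for a named array, or as the lowest, median and highest over the 10 arrays, which are not replicates of a known group.

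The value of a probe was the log2 of its Cy-5 over its Cy-3 processed signal, so that 1 on this scale is a 2-fold difference and 0 is equal signal in both dyes. All arrays had the hemibrain in Cy-5 and none had the dyes exchanged, so a difference between the RNAs and a difference between the dyes cannot be told apart for a probe. In whole tissue, fewer cells of a type and less RNA per cell cannot be told apart either. Of the 4 slides, the first to be described held C10-415, C10-416, C10-417 and C10-423, and the second held C10-424, C10-425, C10-434 and C10-435. C10-413 and C10-437 each lay alone on a slide. C10-434 was the dimmest in Cy-5, with 49.8% of probes well above background in that dye (68.2% to 76.9% on the other 9 arrays) and a median background-subtracted Cy-5 signal of 26.9 (57.2 to 159 on the others). In Cy-3 its median was 119 (95.8 to 125 on the others). Where the lowest or highest value of a member lies on C10-434, the value without it is given too.

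As background, a growing neurite is led by a growth cone, where microtubules are added to, broken down and captured as the membrane advances. Stathmins bind free tubulin and promote the breakdown of microtubules, and phosphorylation switches them off. Doublecortin and the collapsin response mediator protein CRMP-2 act the other way, by holding or feeding growing microtubules. GAP-43 and BASP1 sit on the inner face of the growth cone membrane, where they bind calmodulin and lipids. In the adult brain several of these genes stay on at high level in mature neurons, while doublecortin is best known as a mark of newly made neurons.

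The RefSeq promoter table, on build GRCm38.p6, held 4 of the 10 members. Their 250 bases before the annotated start are shown because they include members at both ends of the ratio order (Dcx and Stmn3 far above 2-fold, Basp1 and Dpysl5 around or below it) and differ widely in base composition. The sequences run 5′ to 3′ along the gene's own strand. Capitals mark matches to GGGCGG (the GC box), which reads CCGCCC on the other strand, or to TATAAA (the TATA box). Both strands were searched and overlapping matches were each counted.
Dcx, chrX:143933220-143933469, minus strand: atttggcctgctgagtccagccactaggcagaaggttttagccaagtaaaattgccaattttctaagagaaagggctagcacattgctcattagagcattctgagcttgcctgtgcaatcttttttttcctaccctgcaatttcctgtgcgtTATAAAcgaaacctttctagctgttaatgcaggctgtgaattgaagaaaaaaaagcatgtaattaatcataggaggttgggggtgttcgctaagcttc
Stmn3, chr2:181314501-181314750, minus strand: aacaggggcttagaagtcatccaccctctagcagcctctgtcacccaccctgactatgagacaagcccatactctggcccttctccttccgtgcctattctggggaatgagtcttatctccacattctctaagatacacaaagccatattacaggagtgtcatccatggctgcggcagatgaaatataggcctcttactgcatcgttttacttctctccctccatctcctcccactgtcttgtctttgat
Basp1, chr15:25413765-25414014, minus strand: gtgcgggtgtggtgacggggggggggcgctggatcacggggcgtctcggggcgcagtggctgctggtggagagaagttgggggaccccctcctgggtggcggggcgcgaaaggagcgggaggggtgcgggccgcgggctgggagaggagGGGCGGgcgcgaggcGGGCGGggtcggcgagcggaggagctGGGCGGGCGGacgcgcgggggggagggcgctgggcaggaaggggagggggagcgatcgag
Dpysl5, chr5:30711314-30711563, plus strand: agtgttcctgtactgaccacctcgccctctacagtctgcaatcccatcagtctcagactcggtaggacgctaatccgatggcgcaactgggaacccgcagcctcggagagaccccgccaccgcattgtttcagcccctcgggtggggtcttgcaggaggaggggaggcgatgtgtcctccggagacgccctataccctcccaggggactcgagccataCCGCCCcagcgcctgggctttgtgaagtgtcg
The Basp1 window held 4 GC boxes, a pair of which overlap, and 78.8% of its bases were G or C, above 98.3% of all promoters. Dpysl5 held 1 GC box, on the other strand, and 62.8% G or C. The window of Dcx, the first of 2 for this gene, held no GC box and 1 TATA box, with 41.6% G or C, above only 14.9% of promoters. Part of this window lies inside the gene as annotated, which reaches to 143933396, so it precedes a start within the gene. Stmn3 held neither motif and 48.8% G or C. Over all 32851 promoters of this length, 32.7% held a GC box and 12.4% a TATA box, and the median G or C content was 52.4%. These matches describe the letters of 4 windows and were set against no level.

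Across all 18539 genes, each taken by its brightest probe over both dyes, 16.5% were at least 2-fold higher in Cy-5 on every array with a value and 15.6% were at least 2-fold lower. Of the 10 members, 7 were higher and 0 were lower. The median of the members' median log2 ratios was 3.85, against 0.063 over all genes. No test was made of this, since the members were chosen with earlier results of the same arrays known.

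**Figure D1:**
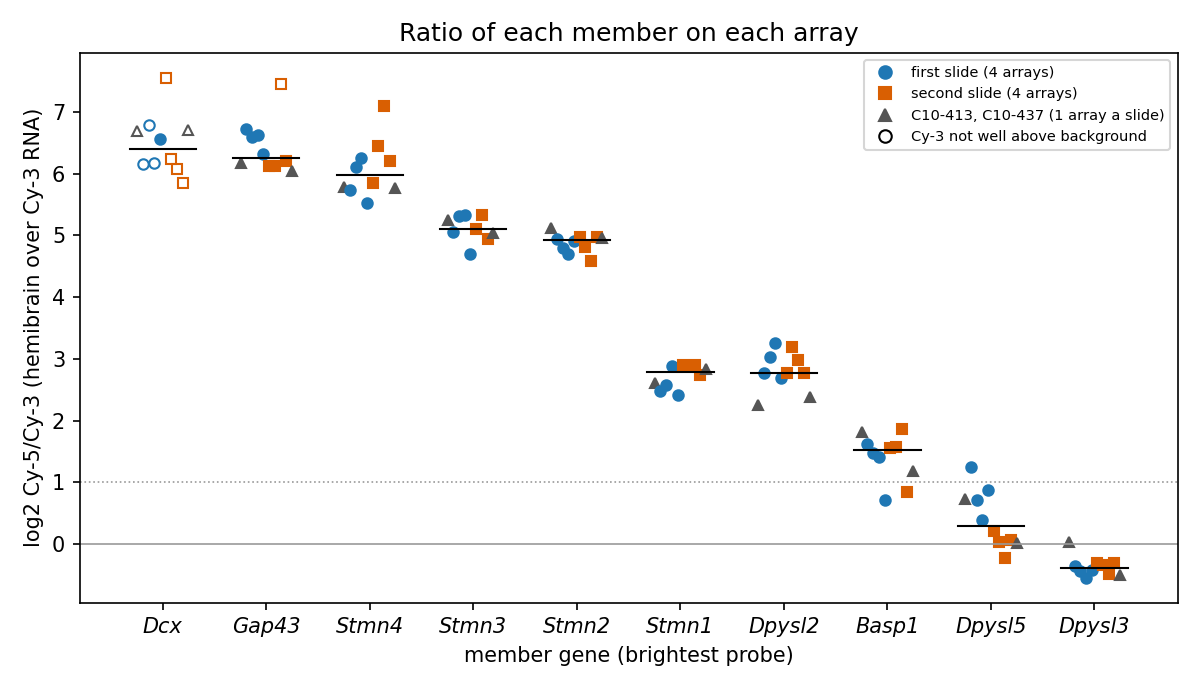
Log2 Cy-5/Cy-3 of the brightest probe of each member (horizontal axis, ordered by median) on each of the 10 arrays, with symbols by slide, black bars at the median, open symbols where Cy-3 was not well above background, and a dotted line at 2-fold. Dcx stands first with a computed median of 6.40, but its place is not settled (open on 9 arrays, median of the lower bounds 5.98). Gap43, Stmn4, Stmn3 and Stmn2 have medians from 6.26 to 4.92. Below them come a pair at 2.78 and 2.77 (Stmn1 and Dpysl2) and Basp1, Dpysl5 and Dpysl3 from 1.52 to -0.39.

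The neuronal stathmins stood far above the Cy-3 RNA. Stmn2 (SCG10), which is anchored to vesicle membranes and carried to growth cones, had a log2 ratio from 4.59 on C10-434 to 5.11 on C10-413, with a median of 4.92, or 30.3-fold. Its range over the arrays, 0.53, was narrow, since 15.7% of the 10533 genes measured in both dyes on every array had a smaller one and their median range was 0.79. Without C10-434 its lowest value was 4.70 and its range 0.41, with 7.81% of those genes below. Stmn3 (SCLIP), a close relative of Stmn2, was measured on 9 arrays and ran from 4.70 on C10-423 to 5.32 on C10-425, with a median of 5.10, or 34.3-fold. Its spot on C10-434 was marked as an outlier by the scanner software and was set aside. Stmn2 and Stmn3 were neighbours in the order and overlapped, with Stmn3 above on 7 of 9 arrays and the difference between -0.20 and 0.62.

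Stmn4 (RB3), another membrane-bound stathmin, had the highest ratio of the family. It ran from 5.52 on C10-423 over a median of 5.98 (63.0-fold) to 7.10 on C10-434. Without C10-434 its highest value was 6.45. Both signals as given were lowest on C10-434 for this probe, with a Cy-5 signal of 272375 against 343270 to 442576 on the other arrays, and a Cy-3 signal of 1989 against 4896 to 9385. Less the array median, Cy-5 was instead highest there, at 10.67 against 9.87 to 10.63, and Cy-3 stayed lowest, at 3.50 against 3.94 to 4.90 (all log2). Stmn4 lay above Stmn3 on 9 of 9 arrays, by 0.54 to 1.28, and their ranges did not overlap.

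Stmn1 (oncoprotein 18), the soluble founder of the family, is also used by dividing cells. Its brightest probe, A_51_P495641, ran from 2.42 on C10-423 to 2.90 on C10-434, with a median of 2.78, or 6.88-fold. Without C10-434 the highest value was 2.89. It lay below Stmn2 on 10 of 10 arrays, by 1.69 to 2.50. The Cy-3 signal of this probe was far above background on every array, between 40094 and 78111. Markers of dividing cells were 2-fold lower in Cy-5 on every array in 8 of 8 genes, against 15.6% of all genes. Their list medians lay between -5.69 and -4.92 (-5.54 and -4.92 without C10-434), and the proliferation marker Mki67 had a median of -6.40. The part of dividing cells in the Cy-3 level of Stmn1 was not tested.

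Of the growth cone membrane proteins, Gap43, a substrate of protein kinase C, was strongly higher and Basp1 modestly so. Gap43 had a log2 ratio from 6.04 on C10-437 to 7.45 on C10-434, with a median of 6.26, or 76.5-fold. Its Cy-3 signal was well above background on 9 arrays, from 79.1 to 179, and was 30.5 on C10-434, where the ratio is therefore only a lower bound of 6.34. On the other 9 arrays Gap43 kept between 6.04 and 6.72, a range of 0.68. Without C10-434, Gap43 lay above Stmn4 on 7 of 9 arrays and the ranges overlapped. With normexp, a background correction that models signal plus noise, the median of Gap43 was 4.82 (28.3-fold) and 1 array fell to 0.59, so the 2-fold call on every array was lost. With floored subtraction, in which background is subtracted, low values are raised to a floor and an offset is added, the median was 5.25 (38.1-fold).

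Basp1 ran from 0.72 on C10-423 over a median of 1.52 (2.87-fold) to 1.86 on C10-434, or to 1.81 without that array. C10-435, at 0.85, was the other array below 2-fold. The spread came more from the hemibrain dye, since its Cy-5 signal less the array median ranged over 1.26 on the log2 scale and its Cy-3 signal over 0.54. Basp1 lay below the brightest probe of Dpysl2 on 10 of 10 arrays, by 0.44 to 1.97, and their ranges did not overlap. The order turned with the other probe of Dpysl2, A_51_P468899, which ran from -0.17 to 0.28, wholly below Basp1.

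Doublecortin (Dcx) was read by 3 probes, of which A_52_P244349 carried a signal. Its Cy-5 signal was well above background on 10 of 10 arrays, at 966 on C10-434, a median of 2276 and 3974 on C10-423. Its Cy-3 signal was well above background on C10-423 alone, at 41.9, where the ratio was 6.57, or 94.9-fold. On the other 9 arrays the ratios as computed, 5.85 to 7.55, are not measured values. The lower bounds there, set against the lowest Cy-3 signal that was well above background on the same array, ran from at least 3.88 (14.7-fold) on C10-434 to at least 6.44 on C10-413. With normexp background correction 1 array fell to 0.19, so the 2-fold call on every array was lost, and the median was 3.39 there and 3.97 with floored subtraction. The other 2 probes of Dcx, A_51_P289097 and A_52_P506493, stood clear of the Cy-5 background on 1 and 0 arrays and of the Cy-3 background on 0 arrays, so they gave no ratio. Which part of the transcript each probe reads was not settled here.

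Among other markers of newly made neurons, Sox4 did not follow Dcx, while Neurod1 and Prox1 were not well above background on every array. Of the 9 in the list, which holds Dcx itself, 6 were at least 2-fold higher on every array with a value, 0 were lower and 3 were neither. Over all genes 16.5% were higher and 15.6% lower, which holds as the measure for the marker counts below too. Calb2 had a median of 5.62, and Eomes 3.79 with Cy-3 well above background on 1 array. Sox11, a factor of immature neurons, had a median of 2.81, and Tubb2b, a tubulin of young neurons, 2.75. Sox4, a close relative of Sox11, had a median of -0.98 and ran from -1.87 to -0.65. Neurod1 ranged from 0.19 to 5.07 with a median of 3.86, and Cy-5 was well above background on 9 arrays and Cy-3 on 0 arrays. Prox1 ranged from -0.47 to 2.39 with a median of 1.61, and Cy-5 was well above background on 9 arrays and Cy-3 on 7. Igfbpl1, counted as higher, had a median of 1.86, and Cy-5 was well above background on 9 arrays and Cy-3 on 6. Markers of neurons in general were 2-fold higher on every array in 8 of 8 genes, with list medians of 4.93 to 5.81 without C10-434 and 6.35 on it. The tissue was checked further by its glia and vessels, of which astrocyte and oligodendrocyte markers were each higher in 4 of 4 genes, microglia in 2 of 4, endothelium in 2 of 3 and choroid plexus in 2 of 2, while of 3 liver markers Alb and Apoa1 cleared the Cy-5 background on 0 arrays and Afp on 4. Afp was 2-fold lower in Cy-5 on every array, with a median of -5.70 and Cy-3 well above background on 10 arrays.

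Of the collapsin response mediator proteins, Dpysl2 was higher than the Cy-3 RNA, while Dpysl3 and the brightest probe of Dpysl5 lay nearer to equal signal. Dpysl2 (CRMP-2), which binds tubulin dimers and promotes axon growth, ran from 2.25 on C10-413 to 3.26 on C10-417 with its brightest probe, A_52_P591166, and its median was 2.77, or 6.82-fold. By their brightest probes Dpysl2 and Stmn1 could not be ordered, with Stmn1 above on 3 of 10 arrays and the difference between -0.45 and 0.44. Dpysl3 (CRMP-4), which bundles actin filaments and is strongest during development, had a median of -0.39, or 0.762 of the Cy-3 signal. It ran from -0.54 on C10-417 to 0.03 on C10-413 and was below 0 on the 9 arrays other than C10-413. Both dyes were well above background on every array for Dpysl3, and its Cy-3 signal less the array median ranged over only 0.31.

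Dpysl5 (CRMP-5), which opposes neurite outgrowth promoted by CRMP-2, gave a different picture with each of its probes. The brightest, A_52_P349590, ran from -0.23 on C10-434 over a median of 0.30 to 1.24 on C10-415, the single array past 2-fold. Cy-5 did not clear the background on C10-434, so the ratio there is not a measured value. Its range of 1.47 exceeded that of 92.3% of the genes measured in both dyes, and it was 1.23 without C10-434. The other probe, A_51_P130719, ran from 1.81 on C10-434 to 4.90 on C10-437, with a median of 3.98. Its Cy-3 signal was well above background on 2 arrays, where the ratio was 3.90 on C10-413 and 3.24 on C10-416. On C10-434 neither dye cleared the background and no ratio was had. On the remaining arrays only lower bounds were had, from at least 1.59 on C10-435 to at least 3.69 on C10-437.

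Probes of the same gene also parted in Stmn1 and Dpysl2, and here both dyes were well above background on every array. The probe A_51_P468899 of Dpysl2 ran from -0.17 on C10-423 to 0.28 on C10-435, with a median of 0.15, so it lay near equal signal where the brightest probe lay 6.82-fold higher. The 2 probes differed by 2.61 in their medians and by 2.18 to 3.11 on each array, and their ranges did not overlap. The probe A_52_P319161 of Stmn1 ran from 0.74 on C10-413 to 1.72 on C10-417, with a median of 1.32, which is 1.46 below that of the other probe, and the difference ran from 0.87 to 1.88. Over the 2915 genes with several probes well above background in both dyes on all arrays, the median spread between probe medians was 0.65 and the 90th percentile 2.24. The spread of Dpysl2 exceeded that of 93.4% of these genes and the spread of Stmn1 that of 77.3%. For Stmn1 and Dpysl2 the call of 2-fold on every array thus depended on the choice of probe. With the lowest probe of each gene the count of members at least 2-fold higher on every array was 4 in place of 7. Dcx was lost there too, but through a probe not well above background in either dye, which gave no ratio.

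**Figure D2:**
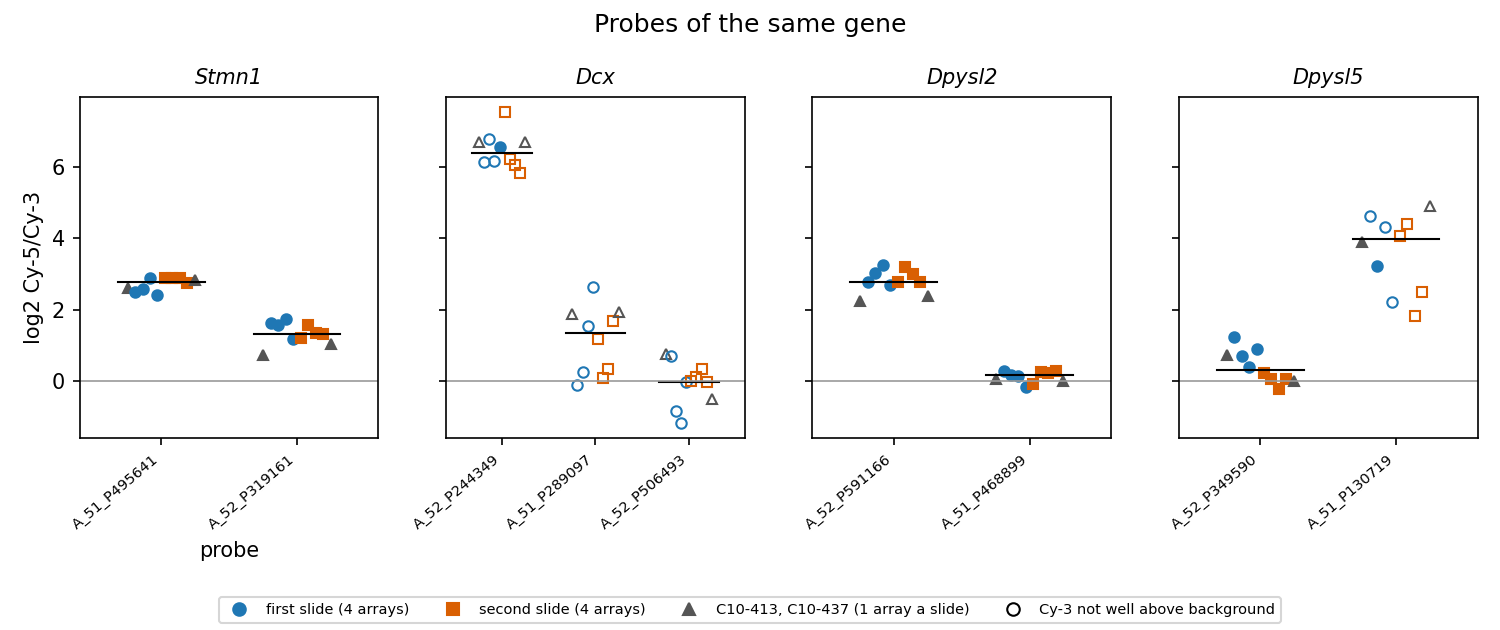
Log2 Cy-5/Cy-3 of every probe of the 4 members with several probes, on each of the 10 arrays, with symbols by slide, black bars at the median and open symbols where Cy-3 was not well above background. The probes of Dpysl2 (medians 2.77 and 0.15) and of Stmn1 (2.78 and 1.32) lie apart with every symbol filled, while the upper probe of Dcx is open on 9 of 10 arrays, its lower 2 probes on all 10, and the higher probe of Dpysl5 on 8.

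C10-434 had the highest ratio of the arrays for Stmn1, Stmn4 and Basp1 and the lowest for Stmn2. The computed ratios of Gap43 and Dpysl5 were also at an end there, but they were not measured in both dyes and have no place in the order. Stmn4 kept its highest value on C10-434 under each of the other normalizations and background corrections tried, by 0.58 to 0.75 above the next array. Stmn1 lost this place under each of them (with loess, 2.89 against a highest value of 2.98 on the others), and Basp1 with median centring and with floored subtraction (1.86 against 1.92). Stmn2 lost its lowest place with normexp. For Gap43, C10-434 gave 5.46 after floored subtraction, against 5.13 to 5.85 on the other arrays. C10-423 had the lowest ratio of the arrays for 4 members (Stmn1, Stmn3, Stmn4 and Basp1). The part of the low signal of C10-434 in these values was not tested.

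The slide was the only technical split that the files settle, and it was tested with limma between the 2 slides of 4 arrays. Slide and animal cannot be told apart in it, and p-values measure the spread between arrays of unknown diet. Over 40299 probes, the log2 ratio differed between the slides at an adjusted p under 0.05 in 0.0744%. Of the 14 member probes in the fit, 0 differed at this threshold and 1 at an unadjusted p under 0.05, a rate of 10% over all probes. Stmn3 was not in the fit for want of its C10-434 value. With the authors' deposited table, which keeps the flagged spot, the difference for Stmn3 was 0.27 (SE 0.27, limma, Benjamini-Hochberg adjusted p = 0.912).

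The member probe at an unadjusted p was A_52_P349590 of Dpysl5. Its log2 ratios were 0.39 to 1.24 on the first slide and -0.23 to 0.21 on the second, so the slides did not overlap. Without C10-434, where Cy-5 did not clear the background, the second slide gave 0.04 to 0.21. The difference, second minus first, was -0.79 (SE 0.21, limma, p = 0.00431, Benjamini-Hochberg adjusted p = 0.204). Without C10-434 it was -0.70 (SE 0.22, limma, Benjamini-Hochberg adjusted p = 0.283). The arrays that lay alone on a slide gave 0.74 on C10-413 and 0.01 on C10-437.

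Taken dye by dye and less the array median, Dpysl5 was higher on the second slide in both dyes, and more so in Cy-3. Its Cy-3 signals were 64.3, 89.9, 71.0 and 79.4 on the first slide and 237, 240, 122 and 191 on the second, in the order of the arrays given above. Less the array median, Cy-3 was -2.18 to -1.85 on the first slide and -0.66 to -0.38 on the second, a difference of 1.52 (SE 0.091, limma, Benjamini-Hochberg adjusted p = 0.000144), or 2.86-fold. Without C10-434 the Cy-3 difference was 1.51 (SE 0.10, limma, Benjamini-Hochberg adjusted p = 0.000497). In Cy-5, the hemibrain dye, the values were -1.72 to -0.88 and -0.68 to -0.40, a difference of 0.74 (SE 0.22, limma, Benjamini-Hochberg adjusted p = 0.112). Without C10-434, where Cy-5 did not clear the background, the Cy-5 difference was 0.78 (SE 0.23, limma, Benjamini-Hochberg adjusted p = 0.105). As given, the Cy-5 signal was 93.0 to 152 on the first slide. On the second it was 104 on C10-434 and 199 to 274 on the others. Less the array median, the lower ratio on the second slide came with a higher, not a lower, hemibrain signal. The other probe of Dpysl5 overlapped between the slides in the ratio and in each dye.

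In Cy-3 alone 29.2% of all probes differed between the slides, and 3 of the 14 member probes did. Beside Dpysl5, the lower probe of Dpysl2, A_51_P468899, was higher on the second slide by 0.49 (SE 0.11, limma, Benjamini-Hochberg adjusted p = 0.0206). Its Cy-5 signal differed the same way by 0.56 (SE 0.23, limma, Benjamini-Hochberg adjusted p = 0.321), and its ratio by 0.06. The lower probe of Stmn1, A_52_P319161, was lower on the second slide by -0.28 (SE 0.082, limma, Benjamini-Hochberg adjusted p = 0.0414). In Cy-5 alone 4.21% of all probes differed and 0 of the 14 member probes, with 2 at an unadjusted p under 0.05 (13.2% of all probes) and a smallest Benjamini-Hochberg adjusted p of 0.112 by limma.

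**Figure D3:**
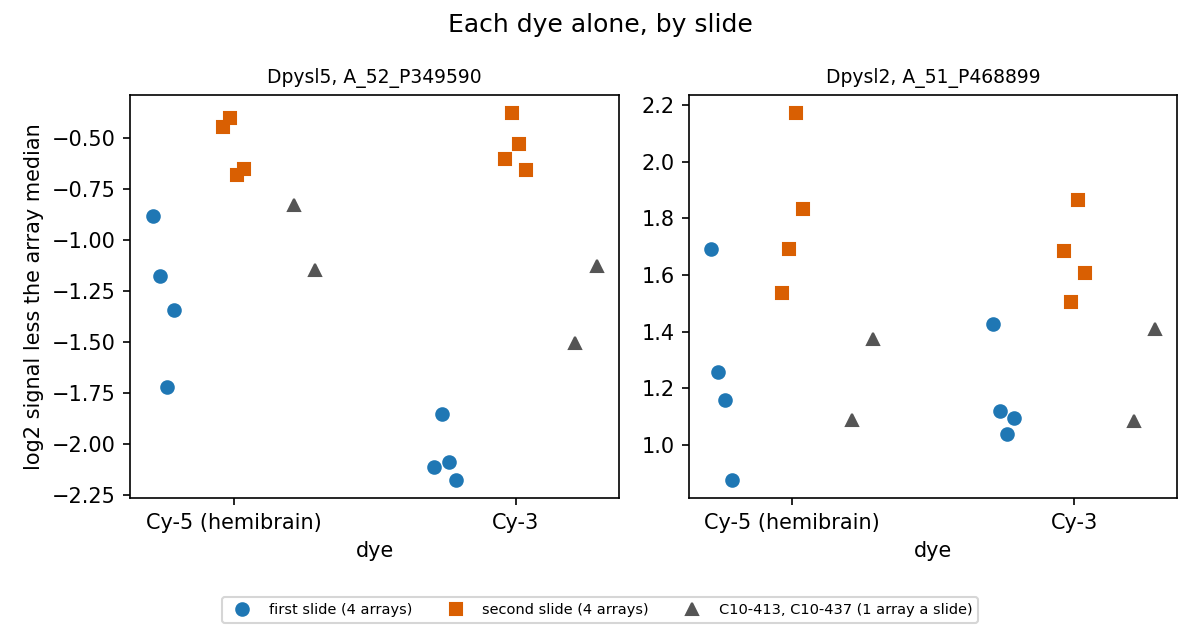
Log2 processed signal less the array median, for Cy-5 and Cy-3 alone (horizontal axis), of probe A_52_P349590 of Dpysl5 and probe A_51_P468899 of Dpysl2, with symbols by slide and 1 symbol an array. For Dpysl5 the slides lie apart in both dyes, with the wider gap in Cy-3, from at most -1.85 on the first slide to at least -0.66 on the second. Cy-5 of this probe did not clear the background on C10-434.

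Relatives and partners of the members were read from 5 lists that hold 43 genes, of which 41 were found. At least 2-fold on every array with a value, 24 were higher, 1 was lower and 16 were neither, and the median over the 41 genes was 2.03. Over all genes 16.5% were higher and 15.6% lower, and the count of each list below is to be read beside these shares. The lists were chosen with earlier results of these data known. The nearest relatives were higher in 5 of 5 genes. Dpysl4 (CRMP-3) had a median of 6.67 and Crmp1 5.47, and the doublecortin-like kinases Dclk1, Dclk2 and Dclk3 had 3.70, 2.34 and 1.98. With Dpysl2 the collapsin response mediator family thus ran, by the brightest probe, from Dpysl4 at 6.67 over Crmp1 at 5.47, Dpysl2 at 2.77 and Dpysl5 at 0.30 to Dpysl3 at -0.39. The places of Dpysl2 and Dpysl5 depended on the choice of probe. The other probe of Dpysl2 had a median of 0.15. That of Dpysl5 gave 3.90 on C10-413 and 3.24 on C10-416, the arrays where its Cy-3 cleared the background.

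Of the membrane and calmodulin-binding proteins like GAP-43, 2 of 4 were higher, namely Nrgn (neurogranin, a postsynaptic calmodulin-binding protein) at 5.48 and Ncam1 (a neural cell adhesion molecule) at 1.55. Marcks and Marcksl1, substrates of protein kinase C, had medians of 0.25 and -0.04. Of the microtubule-associated proteins, 9 of 12 were higher. Map2, of dendrites, had a median of 8.32 and Mapt (tau), of axons, 4.66. Map1b, of growing axons, had a median of -0.17 and ran from -1.27 to 0.39, and the end-binding protein Mapre1 and the linker Clip1 had -0.71 and -0.49.

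The kinases known to act on members were higher in 4 of 10 genes and lower in 1. Cdk5 phosphorylates doublecortin, CRMP-2 and stathmins, and its activator Cdk5r1 (p35) had a median of 6.23 where Cdk5 itself had 1.18. Camk2a and Camk4, calcium and calmodulin-dependent kinases, had 4.52 and 2.06, and Mapk10 (JNK3), the neuronal form of the kinase, had 3.45 where Mapk8 (JNK1) had -0.13. Gsk3b, which acts on CRMP-2 after Cdk5, had -0.65. Rock2, a kinase that phosphorylates CRMP-2, was the gene that was lower, at -2.12. This call was lost with normexp (median -0.99, 2-fold lower on 5 of 10 arrays) and with floored subtraction (-1.46, 8 of 10 arrays). Of the partners, 4 of 10 were higher, with the kinesin light chain Klc1 at 5.47, the tubulins Tubb3 at 3.11 and Tuba1a at 2.50, and Cyfip2 at 2.23. The 10 include Sra1, whose symbol belongs to another gene than the partner protein Sra-1, which is Cyfip1. Both were kept in the counts as neither higher nor lower. The receptors Nrp1 and Plxna1, through which semaphorin signals reach the collapsin response mediators, had -0.70 and -0.15.

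**Figure D4:**
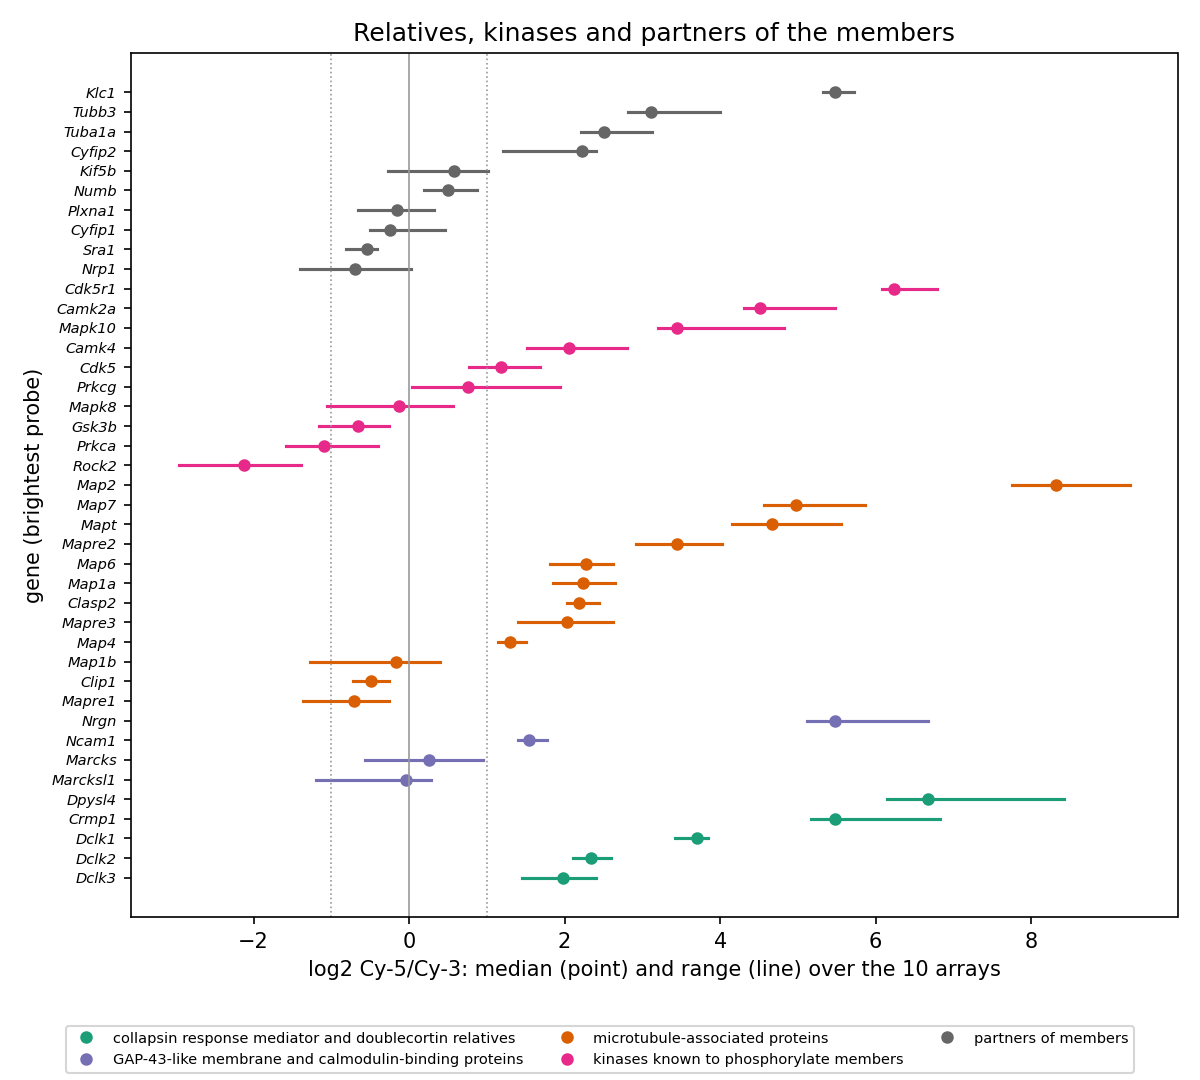
Median (point) and range over the arrays (line) of log2 Cy-5/Cy-3 for the brightest probe of each of the 41 listed genes that were found, coloured by list, with dotted lines at 2-fold in either direction. The 5 relatives of the collapsin response mediators and doublecortin all lie above 1, and Rock2 at -2.12 is the gene wholly below -1, which it was not with normexp or floored subtraction.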

How the data were processed

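RNA of 10 hemibrains was measured on dual dye Agilent 4x44k mouse arrays. The authors scanned the slides, and the deposited Feature Extraction output (version 10.10.1.1) gives intensities of each dye, as median, background and processed signals, and a log ratio in log10. The processed signals are background-corrected and dye-normalized by that software. The authors also deposited a table of log2 ratios, which was equal to log2 of the processed Cy-5 over Cy-3 intensity within 0.001 for all probes. Each array holds 45018 spots, of which 43379 are no controls and 0 were saturated.

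From these, log2 Cy-5/Cy-3 was computed per spot, spots flagged as outliers (0.741%) were dropped, and replicate spots were averaged per probe. Well above background means that the software's flag was on in 0.5 or more of the replicate spots. Probes were named through RefSeq accessions of assembly GRCm38.p6 (27198 of 41174 matched), used for names and promoters. A gene stood as its brightest probe over both dyes. The range of a gene was compared with genes whose brightest probe was well above background in both dyes on every array. The slides were compared with limma 3.58.1 in R 4.3.3, with Benjamini-Hochberg adjustment over all probes. On simulated data for this comparison with 200 of 40299 probes changed by 1.5 (log2), 64% were recovered and 7 unchanged probes were called. Tables and figures used Python 3.11.15, pandas 2.3.3, numpy 2.4.6 and matplotlib 3.10.9.

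The named genes were the members with every probe, and the genes of the fixed lists at the ends of a list or needed beside a member. A planned search for genes that vary like Dcx was left out, since the Cy-3 signal of Dcx did not clear the background on 9 arrays. The members and lists were chosen with earlier results of these data known. The alternatives were loess (span 0.3), median centring, normexp or floored subtraction with an offset of 50, the deposited table, a filter on dim probes, other probes of a gene, each dye alone, an unadjusted p and leaving out each array. The values without C10-434 were added after seeing the data. The normexp correction used median signals, as the files were found to carry these. The precision is limited by the number of arrays.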

Additional observations from a re-analysis of the deposited data

Results flagged for a closer look

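In 42 tests of members' values over the 10 arrays, 4 values stood apart from those of the other arrays by Dixon's test, where chance flags about 1 in 20 groups, or 2.1 here. The log2 Cy-5/Cy-3 of Gap43 was 7.45 on C10-434, against 6.04 to 6.72 on the others, and its Cy-3 was not well above background there. The ratio of Dpysl3 was 0.027 on C10-413, against -0.54 to -0.30. The Cy-3 signal less the array median was 8.07 on C10-415 for Stmn1 (probe A_51_P495641), against 7.59 to 7.84 on the others. For Dcx (probe A_51_P289097) it was -2.99 on C10-434, against -5.11 to -4.23, with Cy-3 not well above background on any array.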

How the results depend on the processing

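No paired analysis was possible because the labels give neither settled groups nor replicate numbers. The count of members at least 2-fold higher on every array was 7, and it was 4 with the lowest probe of each gene, 8 with the highest (Dpysl5 added, through a ratio on C10-434 where neither dye was well above background), 5 with normexp, 5 with only probes well above background in both dyes (Gap43 and Dcx then fell out in both), and 7 without any 1 array. With the lowest probe Dcx turned to -0.024, through a probe not well above background in either dye. Of 180 values of members and of Dpysl5 between slides, 166 kept within the spread over the arrays or on their side of the threshold and 13 moved further. Among these, Gap43 was 4.82 with normexp and 5.25 with floored subtraction, and Dcx 3.39 and 3.97. The pathway genes 2-fold lower were 1, and 0 with normexp, 0 with floored subtraction and 2 with the lowest probe. The probes that differed between slides were 30. They were 0 with normexp, 0 with floored subtraction, 1697 in Cy-5 alone, 11767 in Cy-3 alone, 4034 at an unadjusted p, and 0 to 18 with 1 array left out (0 without any of C10-416, C10-417, C10-424, C10-425, C10-434 and C10-435, 2 without C10-415 and 18 without C10-423). Member probes that differed were 0, 3 in Cy-3 alone and 1 at an unadjusted p, and their smallest limma adjusted p with 1 array left out was 0.239 to 0.385. Low Cy-3 signal limits the ratios of Dcx, of Gap43 on C10-434 and of 1 Dpysl5 probe, which are lower bounds.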
